A study of Mus musculus with 56 samples.

Results

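Imprinted genes are transcribed from the copy inherited from 1 parent, and many of them code for growth factors, growth inhibitors or long noncoding RNAs. The RNA of 9 such genes was followed in mouse liver, and 8 of them have a row among the 23813 genes of the expression table, namely Meg3, Rian, Mirg, Dlk1, Igf2, Peg3, Cdkn1c and Igf2r. H19 was not analysed here. Each gene was found by its symbol and is represented by its first listed transcript. The 9 genes were chosen with their RPKM values in these same libraries known, so their levels and fold changes are given as a description, without p-values.

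Liver RNA came from 12 male mice in 3 groups of 4. Every animal received a low-iodine diet containing propylthiouracil (PTU), an inhibitor of thyroid hormone synthesis. Hypothyroid WT mice received only vehicle (WT PTU), hyperthyroid WT mice were also injected with triiodothyronine (T3) on the last days (WT PTU+T3), and L-NCOR1ΔID mice stayed hypothyroid (L-NCOR1ΔID PTU). In L-NCOR1ΔID mice the corepressor NCOR1 lacks, in the liver, the domains through which it binds the thyroid hormone receptor. These mice are of a mixed C57BL/6;129S background, and the paper does not say which background the WT mice of the RNA had. Genotype, strain and strain variants linked to the genotype can therefore not be told apart. Ages are given per group over all animals of the study, where WT PTU and WT PTU+T3 mice were on average older than L-NCOR1ΔID mice. Ages of the 12 RNA animals alone are not stated. All 12 libraries were poly(A)-selected, and the labels give runs on the same 2 instrument models for each. The smallest steps between values gave a depth of 29.3 to 38.4 M reads per library for WT PTU, 21.4 to 26.2 M for WT PTU+T3 and 38.2 to 42.8 M for L-NCOR1ΔID PTU. The 2 comparisons, T3 against PTU in WT mice and L-NCOR1ΔID against WT mice under PTU, share the 4 WT PTU libraries.

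Several of these genes lie next to each other. The Dlk1-Dio3 interval on mouse chromosome 12 holds genes for proteins that are expressed from the paternal copy (Dlk1, Rtl1, Dio3) and noncoding RNAs expressed from the maternal copy (Meg3, Rian, Mirg), in which numerous small nucleolar RNAs and microRNAs are embedded. Igf2, a fetal growth factor, and Cdkn1c, an inhibitor of cyclin-dependent kinases, lie in a cluster on chromosome 7. Igf2r, on chromosome 17, codes for the receptor that takes up IGF2 and mannose 6-phosphate tagged lysosomal enzymes, and Peg3 on chromosome 7 codes for a zinc finger protein. Most of these genes are expressed strongly in the fetal liver and weakly in the adult liver.

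Before the values, the sequences of the RNAs embedded in the noncoding members are given, since rows of the same table report on them. Of 88 genes annotated in the interval (chr12:110691033-111519307, mm9), 55 had a row of the same name, of which 47 were microRNA hairpins. A hairpin row in poly(A)-selected RNA counts fragments of a longer transcript that cover the hairpin and does not measure the mature microRNA. Only 7 hairpins had a value above 0 in any library, and 5 of these lie inside Meg3, Rian or Mirg. Mir1247 lies beside Dio3, at the far end of the interval. The mature sequences of these 6 hairpins (RefSeq, GRCm38) are given with the seed, bases 2 to 8, in capitals.
mmu-miR-1906 (in Meg3): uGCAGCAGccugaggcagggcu
mmu-miR-770-5p (in Meg3): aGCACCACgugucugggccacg
mmu-miR-770-3p (in Meg3): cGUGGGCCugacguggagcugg
mmu-miR-370-5p (in Rian): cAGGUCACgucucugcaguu
mmu-miR-370-3p (in Rian): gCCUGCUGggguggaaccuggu
mmu-miR-412-5p (in Mirg): uGGUCGACcagcuggaaaguaau
mmu-miR-412-3p (in Mirg): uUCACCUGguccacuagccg
mmu-miR-410-5p (in Mirg): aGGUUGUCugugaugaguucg
mmu-miR-410-3p (in Mirg): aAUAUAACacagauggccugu
mmu-miR-1247-5p (beside Dio3): aCCCGUCCcguucguccccgga
mmu-miR-1247-3p (beside Dio3): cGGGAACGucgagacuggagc
With Mir134, the remaining hairpin above 0, the listed mature RNAs carried 13 different seeds, so that no seed was shared.

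Promoter windows of 250 bases before to 50 bases after the start were listed for 7 of the members. They were searched on both strands for the cAMP response element TGACGTCA, the TATA box TATAAA, the half-site of the thyroid hormone receptor AGGTCA, and its direct repeat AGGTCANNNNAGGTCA. Among all 32851 windows of this length, 1.79% held TGACGTCA, 13.6% TATAAA, 16.3% AGGTCA and 0.0152% the direct repeat. The windows of Meg3 and Peg3 are printed because, of the members, Meg3 was low in both comparisons, Peg3 shifted in opposite directions, and both held TGACGTCA. Matches to TGACGTCA and TATAAA are in capitals, and the windows were placed in mm9 by an exact match.
Meg3, chr12:110778956-110779255 (mm9), plus strand: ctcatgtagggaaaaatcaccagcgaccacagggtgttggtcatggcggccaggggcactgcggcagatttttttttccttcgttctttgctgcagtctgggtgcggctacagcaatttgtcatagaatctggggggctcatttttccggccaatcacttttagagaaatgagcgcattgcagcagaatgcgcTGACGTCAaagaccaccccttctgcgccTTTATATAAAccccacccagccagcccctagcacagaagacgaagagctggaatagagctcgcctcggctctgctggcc
Peg3, chr7:6683081-6683380 (mm9), minus strand: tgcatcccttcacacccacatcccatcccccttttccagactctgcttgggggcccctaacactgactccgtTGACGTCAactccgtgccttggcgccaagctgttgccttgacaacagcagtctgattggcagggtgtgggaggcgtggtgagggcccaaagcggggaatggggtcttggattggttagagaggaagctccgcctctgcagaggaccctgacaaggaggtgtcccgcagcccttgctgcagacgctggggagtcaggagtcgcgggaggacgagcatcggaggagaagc
In Meg3 the match to TGACGTCA began at position -57 from the start, and overlapping matches to TATAAA on both strands began at -29 and -25. In Peg3 the match to TGACGTCA began at -178. AGGTCA was found in the windows of Igf2r (at -11), of a second Meg3 start and of 1 of 4 Igf2 starts, while none of the 11 windows held the direct repeat. These are matches of letters only, and the windows of Rian, Mirg and Dlk1 held none of the motifs.

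The maternally expressed noncoding RNAs were far lower than in WT PTU in both other groups. Meg3, at the head of the noncoding cluster and known as a growth-restraining RNA, was at 4.08, 1.74, 2.04 and 3.33 RPKM in the 4 WT PTU livers. With T3 it was at 0.062, 0.073, 0.041 and 0.020 RPKM, and in L-NCOR1ΔID PTU livers at 0.096, 0.194, 0.118 and 0.117 RPKM. Every library of the latter groups was below every WT PTU library, and the T3 values were also all below the L-NCOR1ΔID values. The mean was 2.80 ± 1.10 RPKM in WT PTU (SD, n = 4, as for all means below), 0.0490 ± 0.0235 RPKM or 1.75% of this with T3, and 0.131 ± 0.0430 RPKM or 4.69% in L-NCOR1ΔID mice.

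On the log2(RPKM + 0.1) scale, which understates changes of low genes, Meg3 differed by -4.21 ± 0.27 (SE) for T3 and by -3.58 ± 0.27 for L-NCOR1ΔID. The table lists 3 Meg3 transcripts, which share exons. The transcript with the highest level averaged 13.8 RPKM in WT PTU, 0.246 RPKM with T3 and 0.743 RPKM in L-NCOR1ΔID mice. The 3 transcripts kept between 1.69% and 1.78% of their WT PTU mean with T3, and between 4.61% and 5.37% in L-NCOR1ΔID mice. For the transcript lowest in WT PTU (mean of 2.43 RPKM), the T3 and L-NCOR1ΔID values overlapped. The highest T3 value was 0.066 RPKM and the lowest L-NCOR1ΔID value 0.060 RPKM. The hairpin row Mir1906-1, whose mature sequence opens the list given earlier, lies in Meg3 and may count the same fragments. It was at 14.1, 4.06, 10.4 and 13.9 RPKM in WT PTU, between 0 and 0.502 RPKM with T3 and between 0.310 and 0.994 RPKM in L-NCOR1ΔID mice.

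Rian, the host of small nucleolar RNAs, followed the same course. It was at 3.38, 1.76, 2.42 and 2.86 RPKM in WT PTU livers, at 0.056, 0.089, 0.079 and 0.064 RPKM with T3, and at 0.193, 0.176, 0.066 and 0.144 RPKM in L-NCOR1ΔID livers. Neither group overlapped WT PTU, but the T3 and L-NCOR1ΔID values overlapped each other. The means corresponded to 2.77% and 5.56% of the WT PTU mean of 2.60 ± 0.685 RPKM. The log2 differences were -3.94 ± 0.20 (SE) for T3 and -3.46 ± 0.24 for L-NCOR1ΔID.

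Mirg, which hosts microRNAs, was the weakest of these RNAs. It was at 0.518, 0.249, 0.238 and 0.646 RPKM in WT PTU, at 0, 0, 0 and 0.030 RPKM with T3, and at 0.057, 0, 0 and 0.040 RPKM in L-NCOR1ΔID mice. These values were made of few reads. With the depth of each library, and with the smallest transcript length that makes all values whole reads, they corresponded to 72 reads over the 4 WT PTU libraries, 1 read over the T3 libraries and 5 reads over the L-NCOR1ΔID libraries. The rate per sequenced read was 54.2-fold lower with T3 (95% exact interval 9.42 to 2170) and 17.8-fold lower in L-NCOR1ΔID mice (7.28 to 56.4). These intervals cover counting error only. Of the embedded hairpins, Mir370, Mir412 and Mir410 were above 0 in WT PTU libraries and at 0 in all 8 others. Mir770 was above 0 in 3 WT PTU libraries and in 1 L-NCOR1ΔID library. These short rows rest on very few reads, and they may count the same fragments as their hosts.

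**Figure D1:**
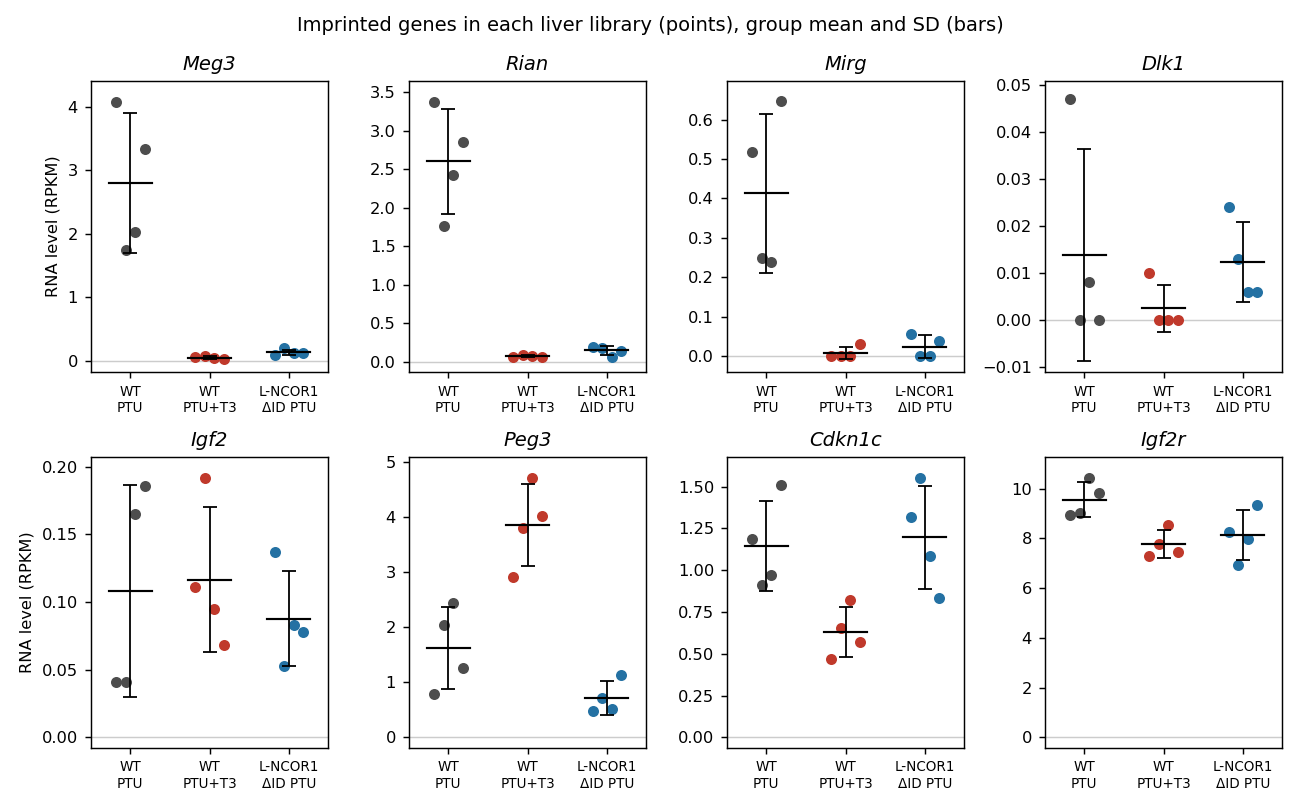
RNA level in RPKM of the 8 imprinted genes in each library (points, 4 per group), with group means (horizontal lines) and SDs (vertical bars). Meg3, Rian and Mirg lie near 0 in both WT PTU+T3 and L-NCOR1ΔID PTU livers, Peg3 is highest with T3, and the axis of Dlk1 ends at 0.05 RPKM.

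The paternally expressed growth genes Dlk1 and Igf2 were hardly detected. Dlk1, which codes for a membrane protein of fetal liver cells, was at 0.047, 0, 0.008 and 0 RPKM in WT PTU, at 0.010 RPKM in 1 library and 0 in the other 3 with T3, and between 0.006 and 0.024 RPKM in L-NCOR1ΔID mice. This is 7, 1 and 8 reads in all for the 3 groups, too few to show a difference in either direction at this depth. The rate in L-NCOR1ΔID relative to WT PTU was 0.925 with an exact 95% interval from 0.293 to 3.00. Igf2 was between 0.041 and 0.186 RPKM in WT PTU, between 0.068 and 0.192 RPKM with T3 and between 0.053 and 0.137 RPKM in L-NCOR1ΔID mice. All 3 groups overlapped, and the means were 0.108 ± 0.0781, 0.117 ± 0.0534 and 0.0878 ± 0.0354 RPKM. Its log2 difference for T3 was 0.11 ± 0.31 (SE), or -0.13 relative to the median of all genes.

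Peg3 was the member with opposite shifts in the 2 comparisons. It was at 0.785, 2.03, 2.43 and 1.25 RPKM in WT PTU livers, at 2.91, 3.80, 4.71 and 4.01 RPKM with T3, and at 0.481, 0.712, 0.505 and 1.14 RPKM in L-NCOR1ΔID livers. All T3 libraries were above all WT PTU libraries, whereas L-NCOR1ΔID and WT PTU overlapped and T3 and L-NCOR1ΔID did not. The mean was 2.38-fold the WT PTU mean with T3 and 43.7% of it in L-NCOR1ΔID mice. The log2 differences were 1.29 ± 0.31 (SE) and -1.05 ± 0.36.

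Cdkn1c, the inhibitor of cyclin-dependent kinases expressed from the maternal copy, was lower with T3 only. It was at 1.19, 0.912, 0.971 and 1.51 RPKM in WT PTU, at 0.471, 0.656, 0.822 and 0.572 RPKM with T3, and at 1.32, 1.55, 1.09 and 0.836 RPKM in L-NCOR1ΔID mice. The T3 values lay below all others, and L-NCOR1ΔID overlapped WT PTU. The T3 mean was 55.1% of the WT PTU mean, with a log2 difference of -0.77 ± 0.20 (SE), against 0.05 ± 0.21 for L-NCOR1ΔID. The second listed transcript gave 55.5% and 105% of the WT PTU mean.

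Igf2r had the highest level of the members by their first listed transcripts. It was at 8.94, 9.03, 10.4 and 9.84 RPKM in WT PTU, at 7.31, 7.77, 8.54 and 7.47 RPKM with T3, and at 8.25, 6.92, 7.98 and 9.35 RPKM in L-NCOR1ΔID mice. The T3 group lay below WT PTU without overlap, at 81.3% of its mean, and L-NCOR1ΔID overlapped WT PTU, at 85.0% of its mean. The log2 differences were -0.30 ± 0.083 (SE) and -0.24 ± 0.10. For T3 it was -0.51 after each library was scaled by its median gene ratio. Whether reads were assigned by strand is not given in the sources used here, so that reads of the antisense RNA Airn within Igf2r cannot be told apart from those of Igf2r.

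Per length of the first listed transcript, the order of the members in WT PTU was Igf2r, Meg3, Rian, Peg3, Cdkn1c, Mirg, Igf2 and Dlk1. Meg3 and Rian, Rian and Peg3, and Peg3 and Cdkn1c overlapped between libraries, while Igf2r stood above and Mirg below these without overlap. Igf2 was below Mirg without overlap and itself overlapped Dlk1. By its most abundant transcript, Meg3 would stand above Igf2r in WT PTU, with 13.8 against 9.56 RPKM. With T3 the order became Igf2r, Peg3, Cdkn1c, Igf2, Rian, Meg3, Mirg and Dlk1. Here Igf2 and Rian, Rian and Meg3, Meg3 and Mirg, and Mirg and Dlk1 overlapped. In L-NCOR1ΔID mice the order was Igf2r, Cdkn1c, Peg3, Rian, Meg3, Igf2, Mirg and Dlk1, and only Igf2r and Peg3 were clear of the gene that followed them.

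Among all genes tested the log2 fold changes for T3 had a median of 0.23 and those for L-NCOR1ΔID of 0.03. The members tested had a median of -0.77 (7 genes) and of -1.52 (6 genes). Igf2 (0.11 for T3) was tested for T3 only, so these 2 medians cover different genes and cannot be compared. A gene was called for T3 at an adjusted p below 0.01 and a log2 change above 1 in size, by which 8.28% of 13941 genes were higher and 3.47% lower (1155 and 484 genes, or 780 and 658 after each library was scaled by its median gene ratio). Of the members, 1 (Peg3) was past these limits as higher and 3 (Meg3, Rian, Mirg) as lower. For L-NCOR1ΔID, called at an adjusted p below 0.01, 0.725% of 13790 genes were higher and 0.544% lower, and 2 members (Meg3, Rian) were past the limit as lower. Groups did not overlap for 5 members as lower and 1 as higher with T3, beside 10.8% and 35.8% of all genes tested. For L-NCOR1ΔID these were 3 and 0 members, beside 5.36% and 7.78% of all genes. The members were chosen on these same contrasts, so nothing is read from these counts. Meg3, Rian and Mirg entered the T3 fit through their WT PTU libraries alone, as did Mirg in the L-NCOR1ΔID fit, which means that they had to differ.

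**Figure D2:**
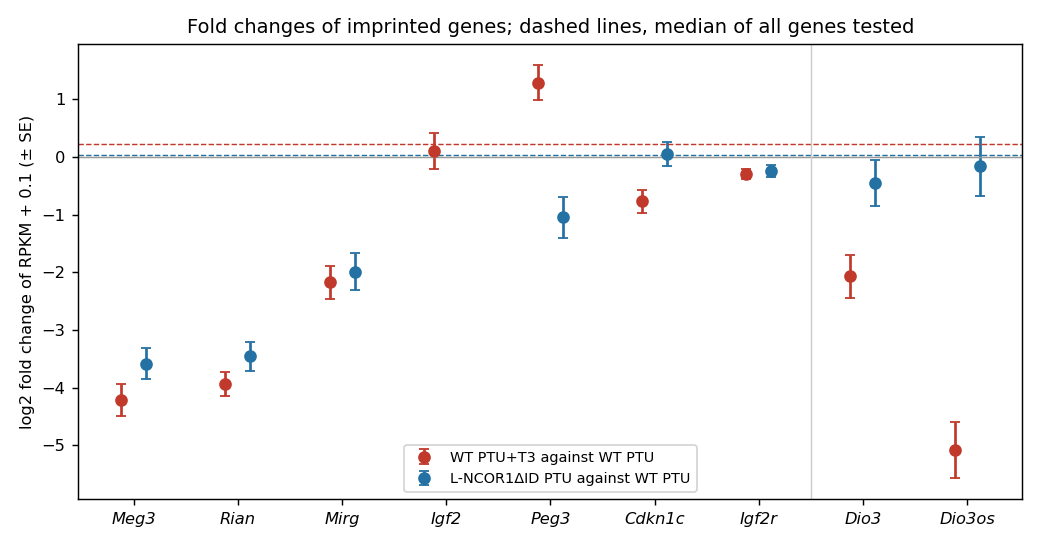
Log2 fold change of RPKM + 0.1 with its SE for the members tested and, right of the vertical line, for Dio3 and Dio3os, in WT PTU+T3 (red) and L-NCOR1ΔID PTU (blue) against WT PTU. Dashed lines give the medians of all genes tested, 0.23 and 0.03. Meg3 and Rian are lower by more than 3 in both comparisons, and Dio3os is lower with T3 and near 0 in L-NCOR1ΔID.

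At the far end of the same interval the comparisons parted. Dio3 codes for the deiodinase that inactivates thyroid hormone and Dio3os is transcribed from the opposite strand beside it. Dio3 was at 0.649, 0.103, 0.257 and 0.475 RPKM in WT PTU, at 0 in all 4 T3 libraries, and at 0.276, 0.295, 0.163 and 0.124 RPKM in L-NCOR1ΔID mice. This corresponds to 92, 0 and 64 reads per group. Against a floor of 3 reads over the T3 group, Dio3 was at least 23.1-fold lower with T3. In L-NCOR1ΔID mice the limma estimate was -0.46 ± 0.40 (adjusted p = 0.559) and the groups overlapped. The Dio3 rate per sequenced read was 1.78-fold lower there than in WT PTU (exact interval 1.28 to 2.48). This interval covers counting error only and not the spread between animals.

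Dio3os was at 7.60, 1.69, 2.47 and 8.26 RPKM in WT PTU, between 0 and 0.062 RPKM with T3, and at 4.93, 2.96, 4.89 and 2.36 RPKM in L-NCOR1ΔID mice. All T3 libraries were below all others, with a log2 difference of -5.09 ± 0.49 (SE), while for L-NCOR1ΔID the limma estimate was -0.16 ± 0.51 (adjusted p = 0.892). The hairpin row Mir1247, which overlaps Dio3os, was between 0.793 and 3.93 RPKM in WT PTU, at 0 in all T3 libraries and between 0.635 and 2.26 RPKM in L-NCOR1ΔID mice. Dio3, Dio3os and Mir1247 passed the filter on low values in the T3 comparison through WT PTU alone and so had to differ, for which reason no p-value is given. The same holds for L-NCOR1ΔID PTU set directly against WT PTU+T3, a comparison added after the data were seen, which these rows entered through L-NCOR1ΔID alone. There the log2 differences, given as a description, were 1.61 for Dio3, 4.92 for Dio3os and 3.70 for Mir1247, and no L-NCOR1ΔID library overlapped a T3 library. Hence Meg3, Rian and Mirg were low in both groups, whereas the Dio3 end was low with T3 and kept 55.7% to 75.6% of its WT PTU mean in L-NCOR1ΔID mice. Rtl1, a paternally expressed retrotransposon-derived gene opposite the noncoding cluster, stayed at or below 0.012 RPKM in all libraries.

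**Figure D3:**
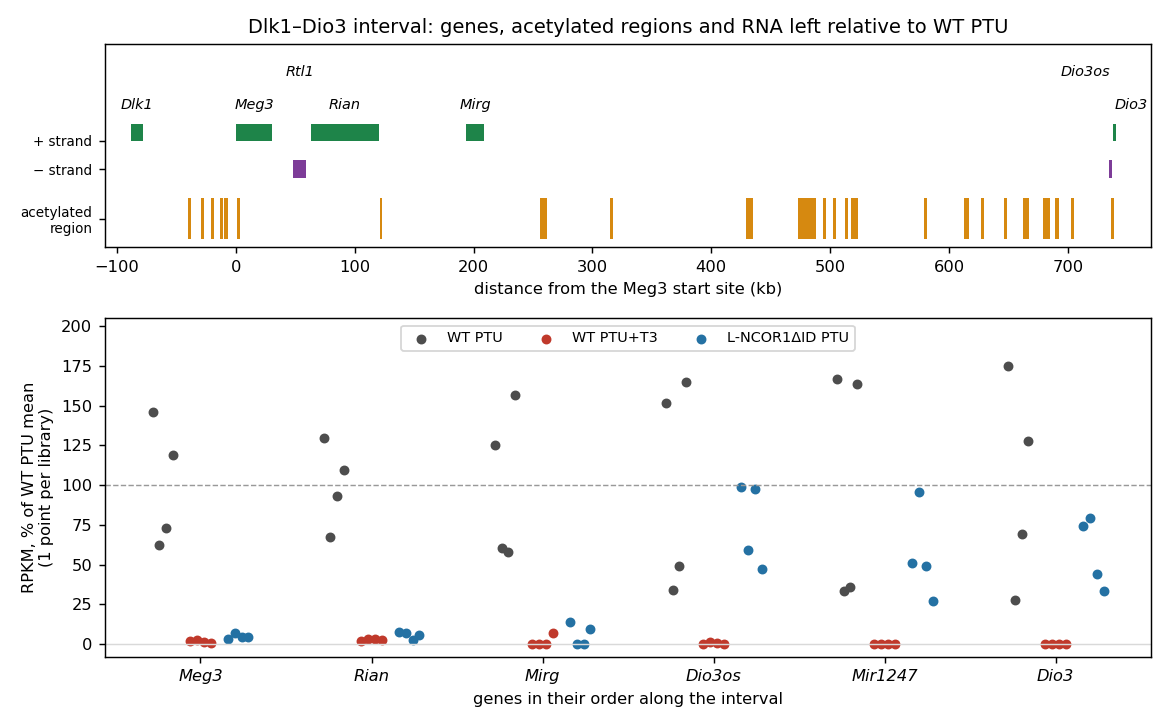
Top, genes of the Dlk1-Dio3 interval on the plus strand (green) and minus strand (purple) and the 25 acetylated regions (orange, drawn at least 2.5 kb wide) by distance in kb from the Meg3 start. Bottom, RPKM of 6 rows as percent of their WT PTU mean (dashed line, 100), 1 point per library. WT PTU+T3 libraries (red) lie near 0 throughout, and L-NCOR1ΔID PTU libraries (blue) lie near 0 at Meg3, Rian and Mirg but not at Dio3os, Mir1247 and Dio3.

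Genes outside the interval were used as a local reference. Of 14 protein-coding genes within 700 kb on either side that have a row, chosen after the data were seen, 12 were tested and 0 were called in either comparison by limma, with 7 (T3) and 2 (L-NCOR1ΔID) at an unadjusted p below 0.05, a limit passed by 56.5% and 20.5% of all genes tested. For T3, 3 of them (Wars, Cinp and Tecpr2) were higher at an adjusted p below 0.01 with a log2 change under 1, and 24.5% of all genes were higher at this adjusted p at any fold. Their limma log2 changes ranged from -0.02 to 0.88 for T3 and from -0.49 to 0.22 for L-NCOR1ΔID. Wdr25, before Dlk1, averaged 1.12 RPKM in WT PTU, 1.44 RPKM with T3 and 1.14 RPKM in L-NCOR1ΔID, and Ppp2r5c, after Dio3, averaged 9.44, 10.4 and 9.71 RPKM.

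The WT PTU livers also differed among themselves in these genes. Meg3, Rian, Mirg, Dio3os, Mir1247, Dio3 and Cdkn1c were all higher in replicates 1 and 4 than in replicates 2 and 3, and Peg3 was lower in replicates 1 and 4. The highest WT PTU library was 2.35 times the lowest for Meg3, 1.92 for Rian, 2.71 for Mirg, 4.90 for Dio3os and 6.30 for Dio3. It was 3.09 for Peg3, 1.65 for Cdkn1c and 1.17 for Igf2r. Over the 12 libraries, deviations from the group mean of log2(RPKM + 0.1) gave a Pearson r of 0.81 between Meg3 and Dio3, 0.63 between Meg3 and Rian, and -0.61 between Meg3 and Peg3. These r describe 12 points that share the depth of their library, and no test was made.

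The tested genes whose deviations were most like those of Meg3 were Pbxip1 (r = 0.90), Echs1 (0.89) and Gm16576 (0.88), out of 14110 genes ranked. For Rian they were Gm10639 (0.92), Emilin2 (0.92) and Hlx (0.91). For Peg3 they were Strn4 (0.93), Dhx30 (0.92) and Chmp6 (0.92), for Cdkn1c they were Procr (0.94), Chpf (0.94) and Was (0.93), and for Igf2r they were Fam45a (0.97), Zfhx3 (0.97) and Stam (0.94). Dio3 ranked at place 40 for Meg3 and 49 for Rian. The neighbours ranked lower, with Rian at 308 and Mirg at 1483 for Meg3, and Meg3 at 568 and Mirg at 689 for Rian. Dio3 was at 0 in all T3 libraries, so these add no deviation of Dio3 to its r.

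Histone acetylation is a readout that did not choose the members. The list of acetylated regions merges H3K27 and H3K9 acetylation found in hypothyroid or hyperthyroid WT livers and holds positions only, so acetylation per group was not analysed here. The start site lay inside a region for 2 of the 8 members, Peg3 (chr7:6679815-6683340) and Igf2r (chr17:12960780-12963610), against 56.2% of 19904 genes with a position in GENCODE M1. Among the 2249 genes with a mean of 0.5 to 2 RPKM, a range that of the members held only Meg3, Rian and Cdkn1c, the share was 79.7%. The region nearest to the Meg3 start (chr12:110780034-110781281) began 823 bp downstream, inside the gene, and that of Cdkn1c (chr7:150644703-150645964) lay 991 bp downstream, also inside the gene. Within 1 kb of a region, the count was therefore 4 of 8, against 58.2% of all genes. By any listed transcript start, 3 members had a start inside a region, as another Meg3 start lay inside one. The share over all genes was not computed in that way.

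The start sites of the remaining members lay farther from any region. The distance from the start was 15.2 kb for Dlk1, 57.9 kb for Rian, 61.6 kb for Mirg and 85.8 kb for Igf2, while the median over all genes was 0 kb. For Rian this spans the gene itself, as the region (chr12:110900085-110901084) began just past the gene's end at 110899919. From another listed start of Rian the distance was 15713 bp. No region overlapped Dlk1, Rian, Mirg or Igf2, and 5 overlapped Igf2r. The Dlk1-Dio3 interval held 25 regions, of which 23 lay over none of the named genes, 1 lay in Meg3 and 1 (chr12:111515502-111517616) covered the start of Dio3 and part of Dio3os. In the 41 kb before the Meg3 start there were 5 regions of 1258 to 3838 bp, as the map of the interval shows.

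Other imprinted genes were set beside the members with lists chosen from their known parental expression. Reads were not assigned to a parental copy, so which copy was expressed in these livers was not tested. Of 52 such genes, 38 were tested for T3, of which 3 were called higher, 3 lower (among them Dio3, which had to differ) and 32 did not pass the test, with a median log2 change of 0.25, close to the 0.23 of all genes. For L-NCOR1ΔID 34 were tested, of which 1 rose and 0 fell by limma, with 9 at an unadjusted p below 0.05 (20.5% of all genes) and a median of 0.13. Calls for all genes stand above, at 8.28% and 3.47% for T3 and 0.725% and 0.544% for L-NCOR1ΔID.

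Among the paternally expressed genes 0 of 17 were called higher and 2 lower with T3 by limma, with 8 at an unadjusted p below 0.05 (56.5% of all genes). Slc38a4, an amino acid transporter, fell from 337 ± 29.8 to 147 ± 27.99 RPKM (SD, n = 4, log2 change -1.21, limma adjusted p = 0.00013), and Dio3, described above, was the other. Slc38a4 was at 368 ± 68.9 RPKM in L-NCOR1ΔID mice (adjusted p = 0.691 by limma). Inpp5f, Snrpn and Zrsr1, the most abundant of the rest, had group means between 4.81 and 8.86 RPKM and were not called. Inpp5f was higher with T3 at a log2 change of 0.40 (limma adjusted p = 0.00696), under the limit of 1. Of 15 tested for L-NCOR1ΔID by limma, 0 passed and 3 were at an unadjusted p below 0.05 (20.5% of all genes).

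Among the maternally expressed genes 3 of 21 rose and 1 fell with T3. Cobl, which codes for an actin nucleator, rose from 1.59 ± 0.313 to 7.60 ± 2.41 RPKM (limma adjusted p = 0.00011), H13, a signal peptide peptidase, from 20.4 ± 2.78 to 47.7 ± 4.44 RPKM (4.4e-05), and Kcnq1, a potassium channel, from 0.245 ± 0.0410 to 0.617 ± 0.0601 RPKM (0.00065). Osbpl5, an oxysterol-binding protein gene near Cdkn1c, fell from 2.38 ± 0.383 to 0.573 ± 0.0691 RPKM (2.8e-05). When every library was scaled by its median gene ratio, which brought the median over all genes to 0.03, Kcnq1 was at a log2 change of 0.89, under the limit of 1, and its call was also lost without WT PTU replicate 1. Cobl was the 1 gene of these lists called in L-NCOR1ΔID (3.05 ± 0.139 RPKM, log2 change 0.92, limma adjusted p = 0.00823), and of 8 fits that left out 1 library only that without WT PTU replicate 3 kept this call. Cd81, Gnas and Slc22a18, at 124, 98.5 and 67.5 RPKM in WT PTU, were not called in either comparison. With T3 Cd81 was at 218 RPKM (log2 change 0.80, limma adjusted p = 0.00045) and Slc22a18 at 45.1 RPKM (-0.60, 0.00273). Both missed only the limit of 1 on the log2 change, and Gnas was at -0.01.

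**Figure D4:**
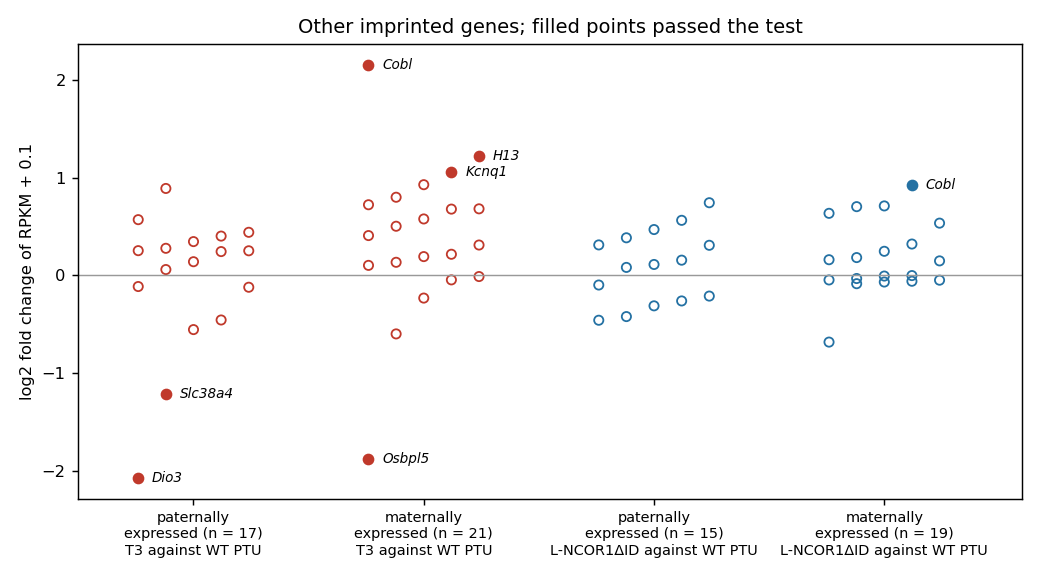
Log2 fold change of RPKM + 0.1 of each tested imprinted gene outside the members (1 point per gene, spread sideways for legibility), by parental expression and comparison. Filled points passed the test, which were 6 of 38 genes for T3 and 1 of 34 for L-NCOR1ΔID, and open points did not.

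Pathways around the members were examined in the same way. Of 11 IGF receptor and binding protein genes, 2 were called higher with T3 and 0 lower, with 7 at an unadjusted p below 0.05 (56.5% of all genes). Igfbp7 rose from 21.7 ± 2.45 to 51.1 ± 3.29 RPKM (limma adjusted p = 2.0e-05), and Igfbp1 from 17.9 ± 13.6 to 175 ± 159 RPKM (0.00723), a call that was lost after scaling and in 6 of 8 fits that left out 1 library, and kept only without WT PTU replicate 1 or WT PTU+T3 replicate 4. Igfals, which stabilises circulating IGF, was 1 of 11 called in L-NCOR1ΔID mice. There it fell from 51.6 ± 5.54 to 32.5 ± 3.70 RPKM (log2 change -0.67, limma adjusted p = 0.00973). This call was lost in all 8 fits that left out a library. With T3 Igfals fell as well, to 33.5 ± 4.04 RPKM (log2 change -0.62, limma adjusted p = 0.00137), without overlap of the groups. It missed only the limit of 1 on the log2 change, which the L-NCOR1ΔID comparison does not have. Igfbp4, the most abundant of the list, was at 659 ± 51.6 RPKM in WT PTU, 1125 ± 44.1 RPKM with T3 and 665 ± 163 RPKM in L-NCOR1ΔID mice. Its log2 change for T3 was 0.77 (limma adjusted p = 2.6e-04), also under the limit of 1, and the groups did not overlap. Igf1 was at 82.5 ± 8.51 RPKM in WT PTU, 74.3 ± 6.65 RPKM with T3 and 72.2 ± 13.5 RPKM in L-NCOR1ΔID mice.

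Of 14 CDK inhibitor and G1 cyclin genes, 12 were tested for T3, 4 rose and 0 fell. Unlike Cdkn1c, the inhibitor Cdkn1a rose from 3.41 ± 1.88 to 31.7 ± 13.9 RPKM (limma adjusted p = 0.00015) and Cdkn2c from 1.75 ± 0.397 to 3.71 ± 0.510 RPKM (0.00139). The cyclin genes Ccnd1, from 2.67 ± 0.602 to 17.2 ± 5.29 RPKM (3.6e-05), and Ccne1, from 0.508 ± 0.145 to 2.74 ± 0.776 RPKM (0.00013), rose as well. After scaling Cdkn2c was at a log2 change of 0.85 and no longer called, as was the case without WT PTU replicate 2. Of 11 of these genes tested for L-NCOR1ΔID by limma, 0 passed and 2 were at an unadjusted p below 0.05 (20.5% of all genes).

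IGF2R carries lysosomal enzymes tagged with mannose 6-phosphate. Of 16 genes of this tagging and of lysosomal cargo, 0 were called with T3 by limma, with 7 at an unadjusted p below 0.05 (56.5% of all genes). For L-NCOR1ΔID 1 was called, with 9 at an unadjusted p below 0.05 (20.5% of all genes). The protease gene Ctsl rose in L-NCOR1ΔID mice from 48.3 ± 5.97 to 143 ± 36.9 RPKM (log2 change 1.53, limma adjusted p = 0.00259). This call was lost without WT PTU replicate 2, 3 or 4 or L-NCOR1ΔID replicate 3. With T3 Ctsl also rose, to 80.6 ± 17.5 RPKM (log2 change 0.72, limma adjusted p = 0.00555), under the limit of 1 on the log2 change. Under the same limit, Hexa fell with T3 from 28.4 ± 5.24 to 14.3 ± 2.99 RPKM (-0.98, limma adjusted p = 0.00153). Man2b1 fell (-0.59, 0.00156) and Ctsz rose (0.47, 0.00256). Of 14 imprint maintenance genes, 12 were tested in each comparison. Uhrf1, a partner of DNA methyltransferase in dividing cells, was at 0.0963 ± 0.0270 RPKM in WT PTU and 0.916 ± 0.221 RPKM with T3. It was called higher, but its WT PTU values of 0.069 to 0.132 RPKM lay around the filter of 0.1 RPKM, which the T3 libraries alone sufficed to pass. Zfp445, which guards imprints, fell in L-NCOR1ΔID mice from 39.5 ± 1.92 to 25.9 ± 3.20 RPKM (0.00799), and of 8 fits that left out a library only that without L-NCOR1ΔID replicate 1 kept the call. Trim28 was at 21.6 ± 0.608, 30.4 ± 5.33 and 19.7 ± 2.47 RPKM in the 3 groups and was not called. For T3 its log2 change was 0.47 (limma adjusted p = 0.00871), under the limit of 1.

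Fetal liver genes and the Notch pathway, in which DLK1 is a ligand-like protein, gave 0 calls in both comparisons by limma, of 6 and 10 genes tested. At an unadjusted p below 0.05 there were 1 and 4 genes for T3 and 3 and 2 genes for L-NCOR1ΔID, against 56.5% and 20.5% of all genes. Afp, the fetal albumin, was at 0.946 ± 0.204 RPKM in WT PTU, 0.886 ± 0.185 RPKM with T3 and 1.50 ± 0.347 RPKM in L-NCOR1ΔID mice. Zbtb20 and Zhx2 are known to repress Afp after birth. In WT PTU they were at 12.4 ± 1.10 and 4.94 ± 0.0726 RPKM, and with T3 at 7.46 ± 0.734 and 5.61 ± 0.414 RPKM. For T3 Zbtb20 was at a log2 change of -0.73 (limma adjusted p = 0.00036), under the limit of 1 in size. Notch2, Hes1 and Notch1 were the most abundant Notch genes, at 5.47, 3.13 and 2.57 RPKM in WT PTU. Hes1 was at 4.68 RPKM with T3 (log2 change 0.57, limma adjusted p = 0.00444), also under this limit.

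Markers of liver cell types moved with the groups in part. In bulk RNA, fewer cells of a type and less RNA per cell cannot be told apart. All 7 hepatocyte markers were detected, and their summed level was 38884 to 50426 RPKM in WT PTU, 21062 to 29512 RPKM with T3 and 33159 to 36989 RPKM in L-NCOR1ΔID mice, of which most was Alb (means of 31804, 14325 and 22674 RPKM). Alb and Ttr fell with T3 while 5 markers were not called, of which Apoa1, Tat, Serpina1a and Fga had log2 changes of 0.12, 0.29, 0.36 and 0.70 and Cps1 of -0.38, so that the median of the list was 0.12. Alb's call was lost after scaling and held only without WT PTU+T3 replicate 4 among 8 fits that left out a library. All 6 Kupffer cell markers (Clec4f, Vsig4, Cd5l, Marco, Timd4 and Adgre1) rose with T3, from a sum of 36.9 to 52.6 RPKM to 123 to 205.3 RPKM, with 43.4 to 119 RPKM in L-NCOR1ΔID mice. The 9 stellate cell and fibroblast markers summed to 21.1 to 32.5 RPKM in WT PTU, 34.3 to 44.2 RPKM with T3 and 28.5 to 55.6 RPKM in L-NCOR1ΔID mice, and the 7 endothelial markers to 41.4 to 60.7, 62.0 to 73.9 and 48.7 to 63.0 RPKM. With T3, Col3a1 rose among the former from 1.94 to 4.42 RPKM (limma adjusted p = 0.00225, not called after scaling) and Lyve1 among the latter from 1.24 to 3.76 RPKM (0.00074), and the other 8 and 6 markers were not called. On both lists the summed level was not below the WT PTU range in any library of the other groups.

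The remaining marker lists were weak or mixed. Cholangiocyte markers summed to 2.34 to 3.09, 2.05 to 4.82 and 2.72 to 3.99 RPKM, lymphocyte markers to 1.27 to 3.70, 1.99 to 4.71 and 0.704 to 1.50 RPKM, and mesothelial markers to 0.540 to 2.27, 1.29 to 5.80 and 0.817 to 3.58 RPKM in WT PTU, T3 and L-NCOR1ΔID. Of these, Krt7 was called higher with T3, from 0.310 to 0.844 RPKM (limma adjusted p = 0.00554), a call lost after scaling and without WT PTU replicate 1, 3 or 4 or WT PTU+T3 replicate 1 or 2. Erythroid markers summed to 143 to 209, 149 to 216 and 114 to 197 RPKM, and among them Alas2 fell in both comparisons (limma adjusted p = 1.6e-05 and 0.00422), in L-NCOR1ΔID mice not without any 1 WT PTU library or L-NCOR1ΔID replicate 3. The globin genes Hba-a1 and Hbb-b1 were higher with T3, at log2 changes of 0.81 and 0.88 (limma adjusted p = 0.00866 and 0.00646, under the fold limit), and Klf1 was at -0.90 (0.00202). The part of these cell types in the levels of the imprinted genes was not tested.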

How the data were processed

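Total liver RNA was poly(A)-selected, fragmented, primed at random and made into libraries with the NEBNext kit. Per the labels and the study's methods, the authors aligned reads to mm9 with STAR and used HOMER to quantify RefSeq transcripts. The deposited unit is RPKM. The authors' own tests used DESeq2 on counts, which were not used here. No group was labelled as pooled animals, and that the 4 libraries of a group are separate mice rests on the methods. The table holds 31370 rows, of which 1 names no gene and was not used, and 0 columns of per-sample values were left unused. The share of microRNA hairpin values that came out as whole reads (within 0.03 reads) at the depth given was at least 99.5% per library.

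The test was limma 3.58.1 in R 4.3.3, with its trended variance, applied to log2(RPKM + 0.1). P-values were adjusted over all genes tested (Benjamini-Hochberg). Only the 2 groups compared entered a fit, and genes with at least 0.1 RPKM (2.14 to 4.28 reads per kilobase) in at least 4 libraries were tested. The procedure was tested on simulated data. The members and lists were chosen with earlier results of these data known. Named are the members, list genes that passed a test with up to 3 further abundant genes per list, the 3 genes most like each member with a mean of at least 0.5 RPKM, and the rows between Dlk1 and Dio3. Some genes that missed only the limit on the log2 change are named as well. Genes were placed with GENCODE M1 (mm9). The deposited acetylated regions, made by the authors with HOMER, hold coordinates. Intervals for read rates are exact binomial at 95%. Replicate numbers are shared between groups, but same-numbered libraries did not deviate together (correlations -0.145 to 0.206), so they were not treated as pairs.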

Additional observations from a re-analysis of the deposited data

Results flagged for a closer look

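In 3 of 24 groups of 4 values, 1 library stood apart from the other 3 by more than Dixon's 95% critical value for the gap relative to the range. These were Mirg in WT PTU+T3 (0.03 RPKM in replicate 4, 0 in the others), Dlk1 in WT PTU (0.047 RPKM in replicate 1) and Dlk1 in WT PTU+T3 (0.01 RPKM in replicate 1, 0 in the others). These values correspond to 1, 6 and 1 reads. A group with a value above 0 in 1 library only passes this limit in any case, so no chance rate is given.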

How the results depend on the processing

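With a pseudocount of 1, 575 genes were called higher and 319 lower for T3. For L-NCOR1ΔID, 63 genes were called higher without a variance trend, 118 lower with all 12 libraries in 1 fit, and with the replicate block 20 were higher and 25 lower. Leaving out 1 library gave 36 to 110 higher and 28 to 77 lower genes for L-NCOR1ΔID, the highest counts without L-NCOR1ΔID replicate 4. The 1 other imprinted gene called there (Cobl) was not called with no filter, with no variance trend or with the replicate block (0 genes), nor in 7 fits that left out a library (0 to 1 genes). The acetylated regions at the members' starts numbered 4 within 1 kb, 4 within 5 kb and 3 by any listed transcript start. Of the samples with the same number, 3 of 12 pairs correlated best with each other. For T3, Meg3 was at -1.81 with a pseudocount of 1 and -5.59 with 0.01, Cdkn1c at -0.39 with 1, and Igf2r at -0.51 after scaling. Peg3 was at -0.59 with a pseudocount of 1 for L-NCOR1ΔID. Without any 1 WT PTU library, Meg3, Rian and Mirg had fewer than 4 libraries at 0.1 RPKM for T3 and were not tested. No member past the limits changed sign under an alternative that gave it a value. After scaling to equal medians, 780 genes were higher and 658 lower for T3. The cause of these shifts was not tested.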
